A study of Ceratotherium simum with 9 samples.

Results

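The miRNAs described here are those carried by extracellular vesicles (EVs) of growing and dominant antral follicles of the southern white rhinoceros, Ceratotherium simum simum (SWR). A miRNA was a member when its deposited value exceeded 10 CPM (reads scaled to library size and adjusted by TMM) in at least 2 of the 3 libraries of growing follicles (G) or of the 3 libraries of dominant follicles (D). This rule kept 385 of the 417 miRNAs that passed it in any stage, out of 733 with at least 1 read in the 9 libraries of the series. The follicles of the G group measured 11 to 17 mm and those of the D group 18 to 29 mm. The 3 libraries of pre-ovulatory follicles (P) lent their spread to the test. They also added the miRNAs that passed the rule only in P to those tested and adjusted for. Follicular fluid (FF) was aspirated by transrectal ovum pick up from 2 females, both of which had first received the progestin chlormadinone acetate and then the gonadotropin-releasing hormone analog Deslorelin. Each follicle was rinsed with a solution that held heparin. No unstimulated animal was compared, so the hormone treatment is shared by both groups. Vesicles were isolated by ultracentrifugation, precipitation and size exclusion, and each library was made from vesicles pooled over the 2 animals. The methods call the 3 pools of a stage technical replicates in one place and biological replicates in another. The spread behind every p-value is therefore that between pools, and it may be technical only.

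In mammals that ovulate a single oocyte, a cohort of antral follicles grows together until one outgrows the rest and the others undergo atresia. Granulosa and theca cells, the oocyte and the blood-derived plasma filtrate all contribute vesicles to the fluid of the antrum. A miRNA in a vesicle can enter a recipient cell, where its seed, bases 2 to 8 from the 5′ end, pairs with target mRNAs and lowers their output. In such a bulk sample, fewer vesicles from a cell type and fewer copies of a miRNA per vesicle cannot be told apart. No rhinoceros miRNA catalogue was used, and each name is a horse (eca), cattle (bta) or human (hsa) entry to which a rhinoceros read was matched. Of the members, 170 were equine entries, 91 were bovine and the rest were human.

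The mature sequences below are those of the entries on which the results turn, as the study listed them, 5′ to 3′ with the seed in capitals. The first set was called or stood highest in the G libraries, and its miR-9 pair shares 1 seed.
eca-miR-184: tGGACGGAgaactgataagggt
eca-miR-615-3p: tCCGAGCCtgggtctccctctc
bta-miR-9-5p: tCTTTGGTtatctagctgtatg
eca-miR-9a: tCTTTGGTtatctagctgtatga
eca-miR-379: tGGTAGACtatggaacgtagg
eca-miR-381: tATACAAGggcaagctctctgt
hsa-miR-493-5p: tTGTACATggtaggctttcatt
The second set was called or stood lowest in the G libraries, and its first 2 entries have 17 bases each, with 82.4 and 94.1% of G and C against a median of 43.5% over the 41 members with a listed sequence.
hsa-miR-4497: cTCCGGGAcggctgggc
hsa-miR-4492: gGGGCTGGgcgcgcgcc
eca-miR-378: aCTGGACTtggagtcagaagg
bta-miR-215: aTGACCTAtgaattgacagaca
eca-miR-183: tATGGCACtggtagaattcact
The last set took the largest share of the reads of a library or had no read in 1 library.
bta-miR-11980: aGGCAACGggcttggcggag
eca-miR-148a: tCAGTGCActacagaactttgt
eca-miR-205: tCCTTCATtccaccggagtctg
eca-miR-31: aGGCAAGAtgctggcatagct
The 41 listed sequences held 34 seeds, of which 7 were shared by a pair of entries.

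The 6 libraries held 20385 to 149281 miRNA reads, and their depth sets how firmly single members can be read. The reads numbered 58040, 20385 and 148150 in G1, G2 and G3 and 32260, 149281 and 38258 in D1, D2 and D3. A single read was worth 5.64 CPM in G3 and 21.6 to 33.5 CPM in the other 5 libraries, so that 1 read passed the member rule everywhere but in G3. A member had a median of 62 reads over the 6 libraries, 114 members had fewer than 20 and 18 had only 2 or 3. A value of 0 allows up to 3 reads, which is 16.9 CPM in G3 and up to 100.4 CPM in G2, and this floor covers counting error only. In the paper's supplement, G3 had the most raw reads of all libraries and the lowest share of them passing quality control. Few of the sequenced reads in any library were annotated as miRNAs. It was not tested whether the low share in G3 altered its values.

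G1 and D2 stood apart from the other libraries, because single miRNAs took much of their reads. In G1, bta-miR-11980 took 35.0% of the reads (exact 95% interval 34.6 to 35.4%), whereas its share in the other 5 libraries was 0.0803 to 0.735%. In D2, eca-miR-148a took 71.8% (71.6 to 72.1%), against 4.75 to 20.1% elsewhere. The highest share in the remaining libraries was 11.4% for bta-miR-451 in G2, 10.9% for hsa-miR-3168 in G3, 16.9% for hsa-miR-10400-5p in D1 and 20.1% for eca-miR-148a in D3. These intervals cover counting error only. Values without G1 and D2 stand beside those results that follow for which they are given, and the others use all 6 libraries.

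**Figure D1:**
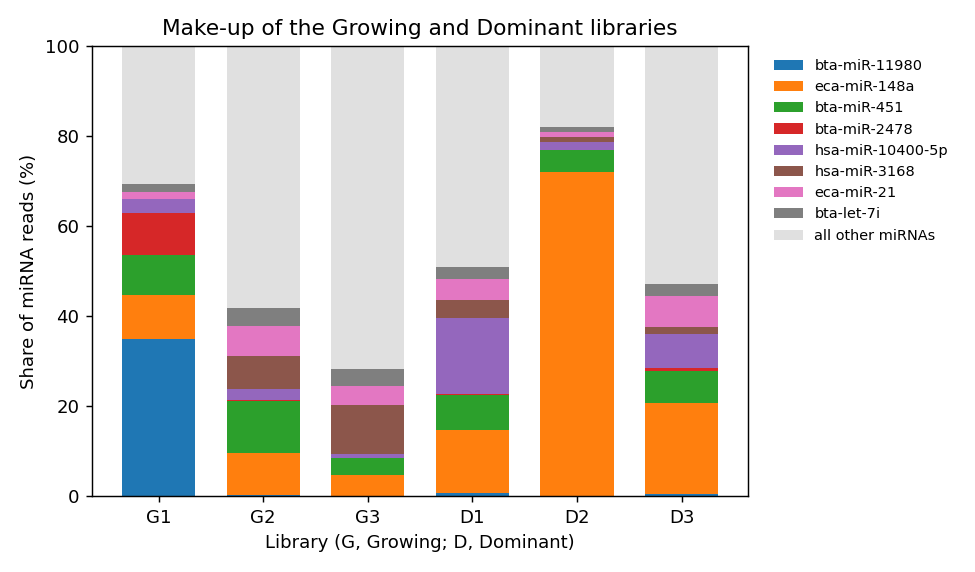
Share of miRNA reads (%, y axis) taken by 8 abundant miRNAs in each of the 6 libraries (x axis). bta-miR-11980 fills 35.0% of G1 and eca-miR-148a 71.8% of D2, and no single miRNA exceeds 20.1% in the other 4 libraries.

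The members were carried unevenly by the libraries of the G group. At a common depth of 20317 member reads, the expected number of members seen was 220, 297 and 311 in G1, G2 and G3 and 254, 177 and 243 in D1, D2 and D3. With bta-miR-11980 and eca-miR-148a left out of the reads, the numbers at a depth of 18353 reads were 248, 295 and 306 against 256, 230 and 247. G2 and G3 thus showed more members than any D library in either form, and G1 lay among the D libraries in both. The member set holds 89 miRNAs that passed the rule only in G and 34 only in D, which favours the G libraries. These counts therefore cannot tell whether G libraries hold more kinds of miRNA. Pearson's r of log2(CPM + 10) across the members, which are not independent, was 0.811 to 0.819 between D libraries, 0.701 to 0.783 between G libraries and 0.721 to 0.809 between a G and a D library. The range between G libraries thus overlapped that between stages, and the D libraries were the most alike.

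Of the 385 members, 262 passed the rule in both stages, 89 only in G and 34 only in D. The members of both stages held 97.5 to 98.4% of the reads of a G library and 98.9 to 99.8% of those of a D library. Members of 1 stage were sparse, with a median of 11 reads for G only and 5 for D only. Which stage had more members of its own rested on single libraries, since a stage of 2 libraries must pass in both. Without G3, 27 members were in G only and 95 in D only, and without D1 the numbers were 141 and 16. Without G1 and D2 together, 320 members remained, 198 of both stages, 88 of G only and 34 of D only. A stricter rule of at least 5 reads in 2 libraries kept 201 members, 47 of G only and 10 of D only.

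The 2 stages, which were defined by follicle diameter, were compared by limma on log2(CPM + 10) over all 417 miRNAs. The selection of a follicle was not itself tested. The log2 differences below are G minus D on that scale, which understates the difference of sparse miRNAs. Calls required a difference of 2-fold or more with an adjusted p (Benjamini-Hochberg) below 0.1. Only 4 miRNAs were called, 0.959% of those tested: eca-miR-184 was higher in G (0.24%), and hsa-miR-4497, hsa-miR-4492 and eca-miR-378 were lower (0.719%). The median difference over the 417 miRNAs was 0.43, so that a difference near that value is the level of the whole table. This median was 0.60 without G1 and D2, 0.05 without G3, and 0.30 to 0.77 under the other scalings tried.

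The largest difference was that of eca-miR-184, a miRNA known in human and mouse for its abundance in the cornea and lens. Its values were 8852, 6059 and 1631 CPM in G1, G2 and G3, and 0, 0 and 1080 CPM in D1, D2 and D3. The lowest G library lay above the highest D library, and all 47 reads of the D group came from D3. The means were 5514 ± 3641 and 360 ± 624 CPM (SD, n = 3), a fold of 15.3, with a log2 difference of 6.54 (SE 1.44) and an adjusted p of 0.0535. Without G1 and D2 the difference was 4.92 and the adjusted p 0.309. The limma call ended when any single G or D library other than D3 was left out (adjusted p 0.102 to 0.314), and it was 0.000264 without D3. The count-based tests did not call it, with adjusted p of 0.271 by edgeR and 0.198 by DESeq2.

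The smallest adjusted p belonged to the 17-base human entries. The values of hsa-miR-4497 were 710, 569 and 598 CPM in the G libraries and 9275, 7507 and 10525 CPM in the D libraries. Its G mean of 626 ± 74.6 was 14.5-fold below its D mean of 9102 ± 1517 (SD, n = 3; log2 difference -3.83, SE 0.561, adjusted p = 0.00416). It was called when any single library was left out (adjusted p 0.00842 to 0.0431), by edgeR (0.00732) and by DESeq2 (4.01e-12). Without G1 and D2 its difference was -4.06 (adjusted p = 0.0331).

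hsa-miR-4492 had 1038, 502 and 305 CPM in the G libraries and 8268, 4954 and 6090 CPM in the D libraries. The groups did not overlap, and the D mean was 10.5-fold above the G mean (log2 difference -3.51, SE 0.670, adjusted p = 0.0296). The adjusted p was 0.0399 without G1 and D2, at a difference of -4.15, 0.176 without D1, 0.0591 by edgeR and 0.000253 by DESeq2. Under plain scaling to the library total, neither entry was called (adjusted p 0.172 and 0.180), nor was eca-miR-378 (0.180). The calls then numbered 1 higher and 0 lower.

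eca-miR-378 was nearly absent from the G libraries. The miRNA is encoded in an intron of the PPARGC1B gene in human and mouse. It had 0, 0 and 11.3 CPM in the G libraries, 2 reads in all, and 326, 649 and 598 CPM in the D libraries, 68 reads. Pooled over the libraries, the D rate was 65.5 times the G rate (exact 95% interval 17.4 to 552, counting error only), with a log2 difference of -5.32 (SE 1.10) and an adjusted p of 0.0407. The adjusted p was 0.128 without G1 and D2, and 0.115 to 0.231 when any single D library was left out. The bovine entry of the same name, bta-miR-378, was far more abundant, with 3688, 1305 and 5531 CPM in the G libraries and 2121, 11207 and 5561 CPM in the D libraries. Summed with it, the miRNA had overlapping groups, a log2 difference of -0.91 and an adjusted p of 0.670, so the call belongs to the equine entry alone. How reads were shared between the entries was not tested.

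**Figure D2:**
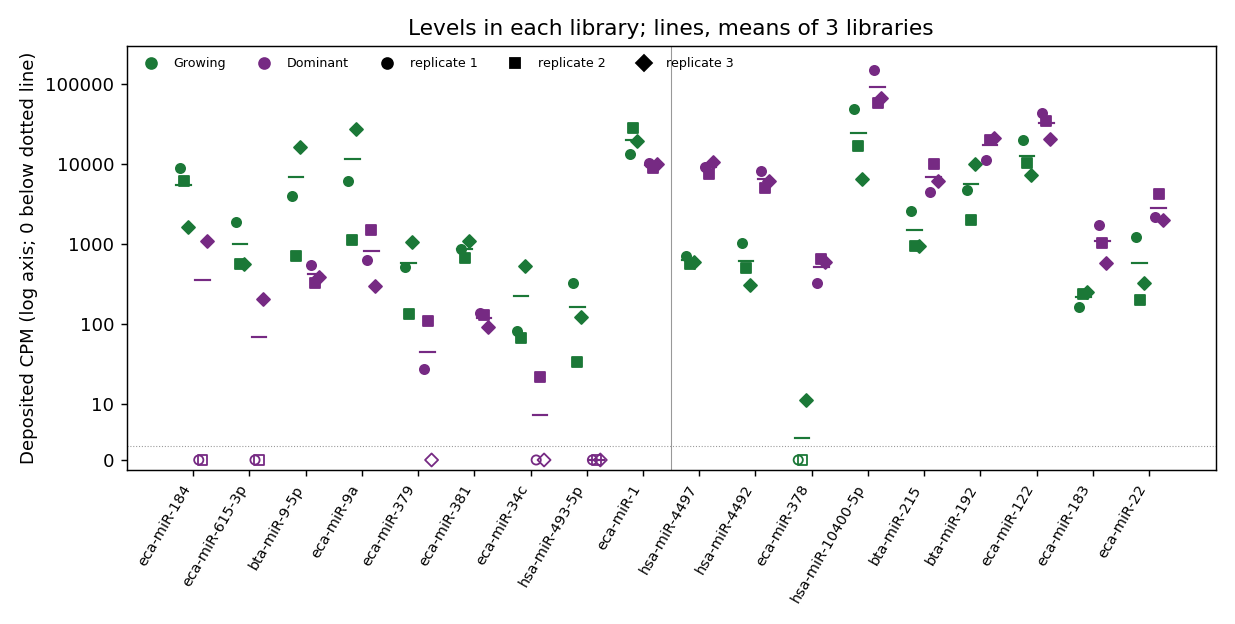
Deposited CPM (log y axis, values of 0 drawn as open symbols below the dotted line) of 18 miRNAs in the 3 G and 3 D libraries, with horizontal lines for the means. Left of the vertical line are 9 miRNAs with higher G means, among them eca-miR-184 with 2 D libraries at 0, and right of it 9 with lower G means, among them hsa-miR-4497 at 569 to 710 CPM in G and 7507 to 10525 CPM in D.

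Without G1 and D2, limma called 3 miRNAs (0.719%), all lower in G: hsa-miR-4497, hsa-miR-4492 and hsa-miR-10400-5p. All 3 belong to the list of entries resembling pieces of structural RNA, described below. hsa-miR-10400-5p had 49421, 16837 and 6473 CPM in the G libraries and 148096, 58131 and 67335 CPM in the D libraries. Its groups did not overlap, and its log2 difference went from -2.25 (adjusted p = 0.187) to -3.26 (0.0399) without both libraries. No miRNA was called higher in G by limma without them, whereas edgeR called 2 and DESeq2 3 as higher. By an unadjusted p under 0.05, 39 of the 417 miRNAs (9.35%) passed with all libraries and 51 (12.2%) without both. All of the 39 kept their sign without both libraries and 22 of them kept a p under 0.05. The 39 were picked from a fit that shares libraries with the reduced one, so the kept signs are no independent evidence. Over the members, 316 of 385 kept their sign.

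The count-based tests shared the 3 calls lower in G and not the 1 call higher. edgeR called 4 miRNAs (0.959%), hsa-miR-4497, hsa-miR-4492 and eca-miR-378 as lower and bta-miR-9-5p as higher. DESeq2 called 14 (3.36%), 7 in each direction, and gave no adjusted p for 70. A fit of the 6 G and D libraries alone, over the 385 members, called hsa-miR-4497 and hsa-miR-4492 (0.519%), and it called 0 without G1 and D2, where 40 had an unadjusted p under 0.05. On the same reduced libraries edgeR called 6 and DESeq2 13.

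**Figure D3:**
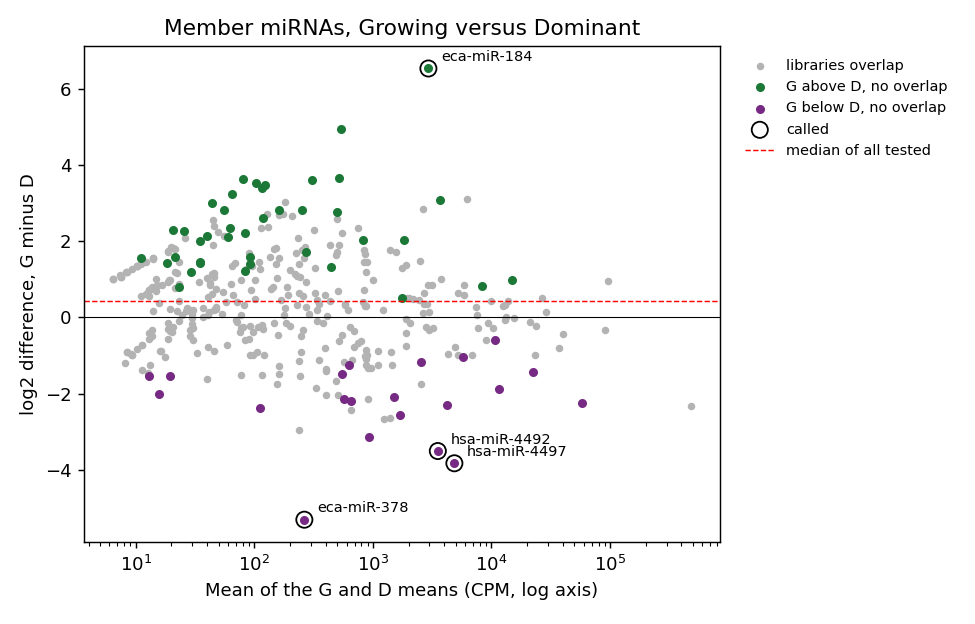
log2 difference of each of the 385 members (y axis, G minus D) against the mean of its G and D means (CPM, log x axis). The 40 members with every G library above every D library are green, the 21 with the reverse are purple, the 4 called are ringed, and the dashed line is the median of all tested, 0.43.

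In 61 of the 417 miRNAs (14.6%) the 3 G and 3 D libraries did not overlap, all of them members, with G above D in 40 (9.59%) and below it in 21 (5.04%). Members that passed the rule in only 1 stage lean toward that stage by the rule itself. Among the 262 members of both stages, G lay above D in 22 and below it in 17, and their median difference was 0.19. With 2 libraries a group, without G1 and D2, non-overlap was common and held for 161 miRNAs (38.6%). Several neural entries had a higher mean in G than in D, with or without overlap. The most abundant of these neural entries were those of miR-9, known as a miRNA of neural progenitors and neurons. bta-miR-9-5p had 3961, 703 and 16310 CPM in the G libraries and 544, 325 and 391 CPM in the D libraries, and its log2 difference was 3.09 (SE 0.945, adjusted p = 0.268). The lowest G value lay above the highest D value. edgeR and DESeq2 called it (adjusted p = 0.0787 and 0.00399), and without G1 and D2 they did so again (0.00642 and 0.0316), whereas limma gave 0.415. eca-miR-9a, which has the same 22 bases and 1 more at the 3′ end, had 6120, 1138 and 27654 against 626, 1514 and 299 CPM. G2 thus lay below D2 (log2 difference 3.12, adjusted p = 0.290). DESeq2 called it with all libraries (0.0225) and without G1 and D2 (0.00420), and edgeR without them only (0.000131). Without G2 limma called both 5p entries (0.0576 for bta-miR-9-5p and 0.0793 for eca-miR-9a). The other arm of the hairpin, hsa-miR-9-3p, had 136.6, 66.9 and 1242 against 27.2, 21.6 and 23.0 CPM, 227 reads against 3. Most of the 227 reads came from G3, the deepest of the G libraries. Summed over both 5p entries, the G mean was 15.1-fold above the D mean, and the G libraries still spanned 1841 to 43964 CPM, with G3 the highest.

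Of the 13 neural members (miR-9, miR-124, miR-128, miR-129, miR-138 and miR-219 entries), 11 had a positive difference, as did 237 of all 385 members. All G libraries lay above all D libraries in 3 of the 13, against 9.59% of all tested, and limma called none with all libraries. Their median was 1.83, against 0.43 over all tested, 1.75 without G1 and D2, 1.21 without G3 and 1.70 to 2.09 under the other scalings. The 9 of them that passed the rule in both stages also had a median of 1.83, against 0.19 over the 262 members of both stages. eca-miR-124, a neuron-enriched miRNA, had 656, 100.4 and 2190 CPM in G and 136, 64.9 and 137.9 CPM in D (log2 difference 2.21, adjusted p = 0.469). bta-miR-129 had 27.3, 66.9 and 530 CPM in G and no read in D. With a floor of 3 reads over the D group, its pooled read rate was at least 16.8-fold higher in G. Most of its reads came from G3, so this is not a bound on the ratio of the library means. The most abundant neural entry went the other way: eca-miR-128 had 14561, 7431 and 6710 CPM in G and 10118, 10363 and 12387 CPM in D, with overlapping groups. The summed level of the list was 26199, 10276 and 58610 CPM in G and 12321 to 13720 CPM in D, so that G2 lay below every D library.

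The 28 members of the imprinted DLK1-DIO3 cluster, a large group of miRNA genes expressed from the maternal chromosome and abundant in embryo, brain and placenta, had mostly positive differences. Positive values were found for 26 of them, against 237 of all 385 members. In 8 all G libraries lay above all D libraries and in 0 below, against 9.59 and 5.04% of all tested, and limma called none. Their median was 1.42 with all libraries, 1.48 without G1 and D2, 1.07 without G3, 1.29 to 1.67 under the other scalings and 1.35 with the 4 members without a D read set to the bound of 3 reads. The counts of the 28 include members that passed the rule in only 1 stage, whose direction the rule favours. The 20 that passed in both stages had a median of 1.38, against 0.19 over the 262 members of both stages. eca-miR-381 had 874, 669 and 1084 CPM in G and 136, 130 and 91.9 CPM in D. Its G mean was 7.34-fold above its D mean (log2 difference 2.77, SE 0.783, adjusted p = 0.187), and DESeq2 called it with and without G1 and D2 (0.00482 and 0.0467). eca-miR-379 had 519, 134 and 1067 CPM in G and 27.2, 108 and 0 CPM in D (log2 difference 3.62, adjusted p = 0.290 by limma and 0.0818 by DESeq2). hsa-miR-493-5p had 328, 33.5 and 124.2 CPM in G and no read in D, at least 6.06-fold higher in G, or 2.97-fold without G1 and D2. The most abundant of the cluster, eca-miR-127, had 3060, 1473 and 8545 against 2257, 1471 and 1953 CPM, with G2 below D1 and D3. The summed level was 7267, 3582 and 16141 CPM in G and 3917, 3570 and 2781 CPM in D.

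The remaining miRNAs with large differences toward G had few reads in D. eca-miR-615-3p, encoded in the HOXC cluster in human and mouse, had 1885, 569 and 564 CPM in G and 0, 0 and 207 CPM in D (log2 difference 4.94, SE 1.40, adjusted p = 0.187). Its pattern resembled that of eca-miR-184, with the D reads all in D3, and its adjusted p was 0.470 without G1 and D2. eca-miR-34c, known in mouse from testis and ciliated epithelium, had 82.0, 66.9 and 530 CPM in G and a single read, in D2, in the D group. The ratio of pooled reads, most of them from G3, was 51.4 (exact 95% interval 9.01 to 2050, counting error only). hsa-miR-3135b had 3060, 33.5 and 5.64 CPM in G and none in D, so that its 114 reads were mostly those of G1.

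Muscle and stromal entries had positive medians without a call by limma. The median of the 4 muscle members was 1.81 with all libraries, 2.25 without G1 and D2, 3.28 without D1 and 0.88 without D3. Only 2 of the 4 passed the rule in both stages, and the median of those was 1.35. eca-miR-1, a miRNA of skeletal and cardiac muscle, ranged from 13387 to 28151 CPM in G and from 9043 to 10335 CPM in D (log2 difference 0.99, adjusted p = 0.469), and the groups did not overlap. eca-miR-133a, made from the same primary transcripts as miR-1 in mouse and human, had 27.3, 669 and 45.1 CPM in G and no read in D, at least 5.02-fold higher, and DESeq2 called it (adjusted p = 0.0906; limma 0.402). The median of the 11 stromal members was 1.01 with all libraries, 1.58 without G1 and D2 and 0.32 without G3. Of these, 6 passed the rule in both stages, and their median was 0.62, against 0.19 over the 262 members of both stages. eca-miR-214 had 54.6, 33.5 and 299 CPM in G and none in D. Its pooled reads, mostly those of G3, gave a rate at least 9.69-fold higher in G. eca-miR-143, a smooth muscle miRNA and the most abundant of the list, overlapped between the groups, with 6561 to 18714 CPM in G and 5952 to 22413 CPM in D.

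Among the miRNAs lower in G, several were miRNAs of liver and gut. Of the 6 members of this list, 3 had every G library below every D library, against 5.04% of all tested. A negative difference was found for 5 of the 6, or 4 without G1 and D2, and for 148 of all 385 members. bta-miR-215, a miRNA of gut epithelium and liver, had 2568, 937 and 937 CPM in G and 4461, 10168 and 6228 CPM in D. Its D mean was 4.70-fold above its G mean (log2 difference -2.31, SE 0.646, adjusted p = 0.187), and DESeq2 called it with and without G1 and D2 (0.0644 and 0.00396). bta-miR-192, of the same family, had 4699, 1975 and 10091 against 11396, 19925 and 21028 CPM (log2 difference -1.89, adjusted p = 0.290), and DESeq2 called it with and without G1 and D2 (0.0636 and 0.0970). eca-miR-122, the main miRNA of hepatocytes, had 20244, 10209 and 7309 CPM in G and 43082, 34182 and 20499 CPM in D (log2 difference -1.44, adjusted p = 0.369), and DESeq2 called it without G1 and D2 (0.0653). The highest G value lay just under the lowest D value. The median of the list was -1.56 with all libraries, -1.53 without G1 and D2 and -1.71 to -1.04 under the other scalings, and its summed level was 14360 to 33032 CPM in G and 60510 to 73491 CPM in D. The rest of the list, eca-miR-192, eca-miR-215 and eca-miR-194, overlapped between the groups. Only eca-miR-194 had a positive difference with all libraries, at 164, 33.5 and 4227 against 81.6, 21.6 and 529 CPM.

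The 25 entries resembling pieces of structural RNA, among them hsa-miR-4497, hsa-miR-4492 and hsa-miR-10400-5p, had differences of both signs. The list was drawn up from names seen in these data, and its direction is no independent evidence. In 6 of them all G libraries lay below all D libraries and in 2 above, against 5.04 and 9.59% of all tested. Of the 25, 2 were called with all libraries, both lower, against 0.719% of all tested. Their median was -0.68 with all libraries and -1.32 without G1 and D2. hsa-miR-3195 had 820, 402 and 474 CPM in G and 3400, 1817 and 2045 CPM in D (log2 difference -2.09, adjusted p = 0.398), and DESeq2 called it without G1 and D2 (0.0970). Against them stood hsa-miR-4488, at 1202, 201 and 11778 CPM in G and 2421, 325 and 0 CPM in D. The signs of 3 abundant entries turned without G1 and D2. bta-miR-11980 had 554503, 2343 and 672 CPM in G and 6446, 4089 and 4619 CPM in D, and its log2 difference went from 0.95 to -2.11. bta-miR-2478 had 147962, 1774 and 344 against 3128, 1731 and 5883 CPM, and its difference went from 0.51 to -2.44. hsa-miR-3168 had 628, 50076 and 91010 against 34216, 32105 and 13789 CPM, and its difference went from -0.79 to 1.64. G1 was the library that stood apart in all 3.

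**Figure D4:**
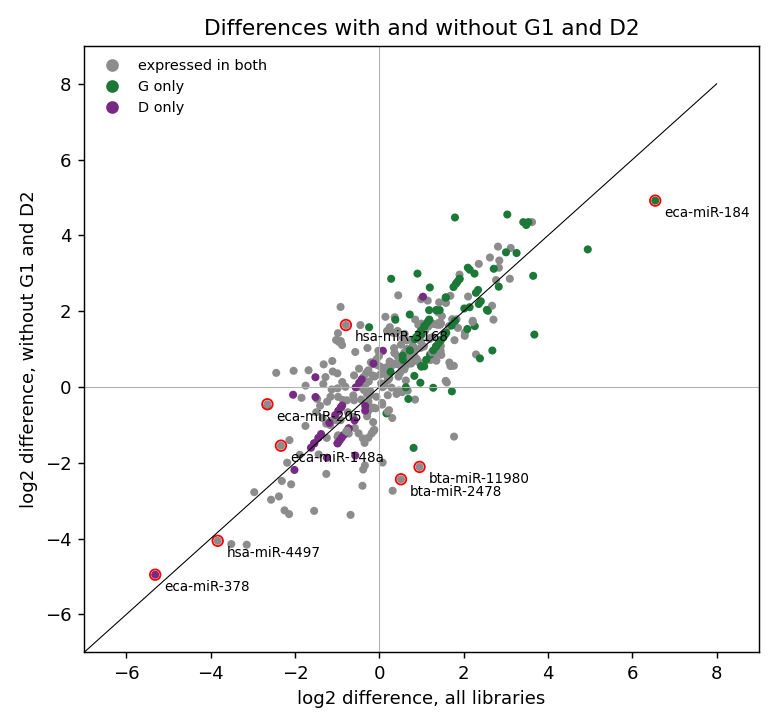
log2 difference, G minus D, of the 385 members with all libraries (x axis) and without G1 and D2 (y axis), coloured by whether a member was expressed in both stages, G only or D only, with the diagonal drawn. Most members lie near the diagonal, 316 keep their sign, and bta-miR-11980, bta-miR-2478 and hsa-miR-3168 change sign.

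eca-miR-148a, the most abundant member, was not called. It had 154683, 63398 and 39686 CPM in G and 121958, 2319960 and 176565 CPM in D, and G1 lay above D1. The log2 difference was -2.33 (adjusted p = 0.398) with all libraries and -1.55 (0.123) without G1 and D2, where edgeR called it (0.0770). Its relative eca-miR-148b-3p, which shares its family, had 792, 703 and 1721 against 2992, 7377 and 1701 CPM, with G3 just above D3, and DESeq2 called it (0.0906).

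The remaining miRNAs with every G library below every D library included eca-miR-183 and eca-miR-22. eca-miR-183, of a cluster known from sensory epithelia, had 164, 234 and 248 CPM in G and 1714, 1017 and 574 CPM in D (log2 difference -2.19, adjusted p = 0.402). DESeq2 called it with and without G1 and D2 (0.0228 and 0.0970), whereas the cluster's eca-miR-182 and bta-miR-182 overlapped between the groups. The median of the cluster's 5 members was 0.47 with all libraries and -0.04 without G1 and D2. eca-miR-22, a broadly expressed miRNA, had 1229, 201 and 327 against 2203, 4175 and 1976 CPM (log2 difference -2.57, adjusted p = 0.398). DESeq2 called it without G1 and D2 (0.0316). hsa-miR-223-5p, the minor arm of a myeloid miRNA, had 464, 33.5 and 248 against 2067, 1017 and 1724 CPM (log2 difference -3.15, adjusted p = 0.469), and DESeq2 called it without G1 and D2 (0.0903). eca-miR-223, of the major arm, had 54.6, 134 and 181 against 109, 43.3 and 91.9 CPM, with overlap.

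Markers of other cell types varied between libraries of the same stage. bta-miR-451, a red cell miRNA, made up 77859 to 140777 CPM in G1 and G2, 30843 CPM in G3 and 62716 to 159942 CPM in the D libraries. The summed level of the 5 red cell members was 37581 to 159300 CPM in G and 82089 to 214200 CPM in D. The 14 leukocyte members, of miR-142, miR-146, miR-150, miR-155 and miR-223, summed to 3989 to 6460 CPM in G and 5358 to 19557 CPM in D. Their median difference was -0.97 with all libraries and 0.51 without G1 and D2, so its sign rested on those libraries. The stratified epithelial eca-miR-205 and eca-miR-31 had no read in G1, while they had 525 to 3013 CPM and 643 to 2176 CPM in the other 5 libraries. With G1 their differences were both -2.66, and without G1 and D2 they were -0.46 and -0.50. The 9 members of the miR-200 family, which is epithelial, had a median of -0.26, or 0.44 without G1 and D2, and eca-miR-200c had no read in G1. The 3 endothelial entries split, with eca-miR-126-3p at 7486 to 10288 CPM in G and 10907 to 16096 CPM in D, and eca-miR-126-5p at 0, 837 and 231 against 27.2, 0 and 0 CPM. The part of these cell types in the differences above was not tested.

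The miRNAs tied to granulosa cell function had a median near 0. The list of 18 members was drawn from miRNAs tied to the response of granulosa cells to luteinizing hormone (LH) or to steroid synthesis. It had a median of 0.15, or -0.10 without G1 and D2 and -0.04 with the 3 members absent from D at their bounds. Its 1 call was eca-miR-378. eca-miR-21, which LH raises in mouse granulosa cells, had 22539, 45222 and 34934 against 41641, 35004 and 60096 CPM (log2 difference -0.43, 95% interval -1.39 to 0.53, adjusted p = 0.712). bta-miR-202, a gonad miRNA, had 2431, 937 and 497 CPM in G and 789, 0 and 3677 CPM in D. Its reads were thus absent from D2 and present in the other 5 libraries. The granulosa miRNAs eca-miR-132 and bta-miR-224 reached at most 245 and 135 CPM in a library.

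Other abundant families held no call by limma. The median difference was 0.04 for the 13 let-7 members, 0.50 for the 16 of miR-26 and miR-30 (0.39 with 1 member absent from D at its bound), 0.47 for the 12 of miR-10, miR-99, miR-100 and miR-125, 0.19 for the 11 of miR-23, miR-24 and miR-27, and 0.56 for the 12 of miR-181, miR-221 and miR-222. The 11 members of miR-17-92 and its paralogs had a median of -0.62 that turned to 0.13 without G1 and D2. bta-let-7i, among the 10 most abundant members of both stages, overlapped between the groups, with 28084 to 31971 CPM in G and 22430 to 38401 CPM in D. Its log2 difference was 0.14 (SE 0.415), with a 95% interval from -0.75 to 1.03.

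**Figure D5:**
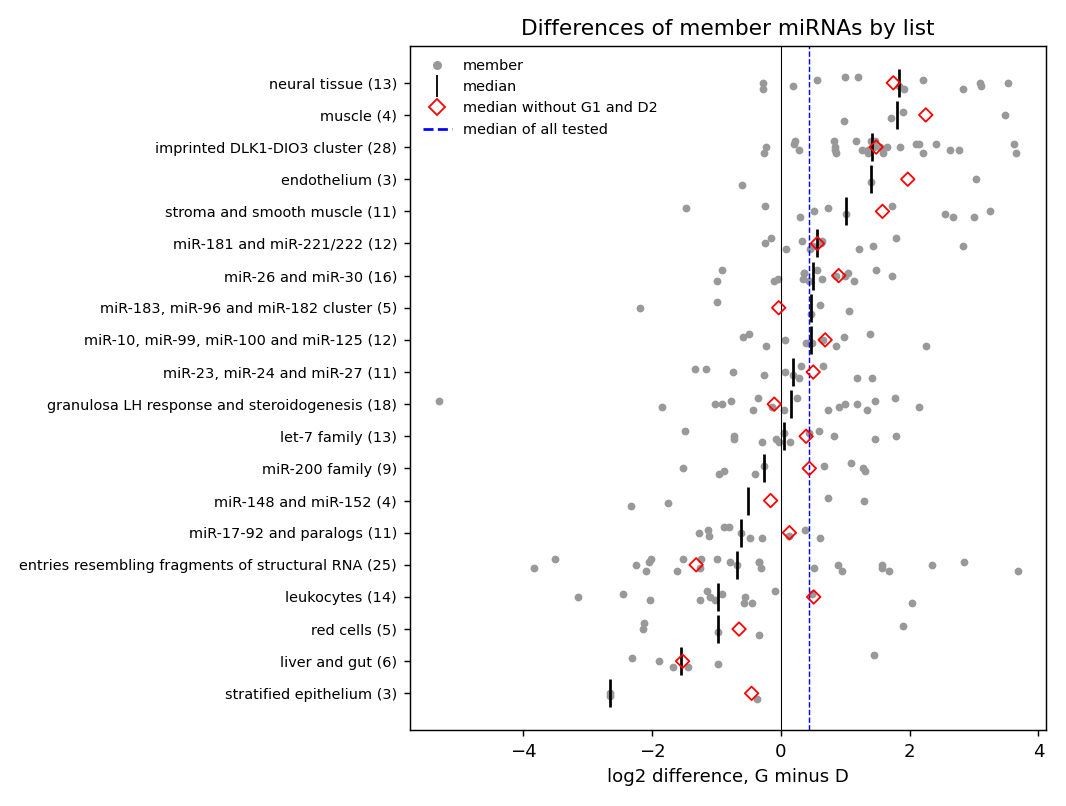
log2 differences, G minus D (x axis), of the members of 20 lists (rows, number of members in brackets): grey points are members, black ticks list medians, red diamonds the medians without G1 and D2, and the dashed line the median of all tested. The neural, muscle and DLK1-DIO3 medians are the highest and those of liver and gut and of stratified epithelium the lowest, and the leukocyte, miR-17-92, miR-200, miR-183 and granulosa medians change sign without G1 and D2.

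Reads of 1 miRNA were often divided among entries of several species, and single entries could then differ in direction. hsa-miR-146b-5p had 2295, 1172 and 626 CPM in G and 381, 238 and 253 CPM in D, with no overlap. eca-miR-146b-5p, which is the same sequence without the last of its 23 bases, had 54.6, 569 and 909 against 354, 3029 and 253 CPM. Their sum had a log2 difference of 0.78 (adjusted p = 0.759). For miR-192 the summed groups overlapped, with G3 at 20295 CPM above D1 at 17135 CPM (log2 difference -1.53, adjusted p = 0.431). The sums over entries kept the direction of miR-215 (-2.28, adjusted p = 0.257), miR-183 (-2.24, 0.352) and miR-615-3p (4.02, 0.297).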

How the data were processed

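Per the methods, the authors trimmed the reads in CLC Genomics Workbench 21 (quality score above 30, at most 2 ambiguous bases, at least 15 nucleotides). They matched reads to equine, bovine and human entries of miRBase 22 with up to 2 mismatches and gave equine entries priority; how this divided reads among near-identical entries is not given in the sources used here. FASTQ files came from bcl2fastq, and the processing notes also name DESeq2 without a role. The deposited values, treated as a signal, are CPM that the authors adjusted by TMM, so that library totals differ. Dividing each library by its smallest value recovered whole reads for 100% of the values within 0.01 of a read. Without molecular identifiers, reads are not independent molecules, and intervals cover counting error only.

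The table gave 3886 names, and 417 passed the filter of 10 CPM in 2 of 3 libraries of a stage. Differences of log2(CPM + 10) were tested in limma 3.58.1 under R 4.3.3, with the prior variance trended, stage as factor and the 9 libraries fitted together, and p-values were adjusted by Benjamini-Hochberg. edgeR 4.0.16 (quasi-likelihood) and DESeq2 1.42.0 on the recovered reads were alternatives. For a stage without a read the fold is a bound against 3 reads over the stage. It uses reads pooled over libraries, so deeper libraries weigh more. The depth of 20385 to 149281 reads per library limits the precision of sparse members. Scripts were tested on simulated data. Tables and plots used Python 3.11.15, pandas 2.3.3, numpy 2.4.6, scipy 1.17.1 and matplotlib 3.10.9.

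The miRNAs named were those called, the 10 largest differences in each direction among members with at least 20 reads and no overlap of the libraries, the 10 most abundant of each stage, up to 4 of the most abundant of each of 20 lists, and up to 15 called by a count-based tool. eca-miR-194, hsa-miR-3195, hsa-miR-4488, eca-miR-124, eca-miR-223, eca-miR-132, bta-miR-202, bta-miR-224 and the entries of miR-146b were named after their values were seen. Members and lists were chosen with earlier results of these data known. Sequences are from the study's listing and cover 41 members.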

Additional observations from a re-analysis of the deposited data

How the results depend on the processing

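The counts of calls, 4 in all, 1 higher and 3 lower in G, moved by over 1.5 times under part of the alternatives. The fit of only the G and D libraries gave 2 calls and 0 higher, and scaling to the library total gave 1 call and 0 lower. DESeq2 gave 14 calls, 7 higher and 7 lower. A filter of 5 reads gave 2 higher, and a threshold of 0.05, no variance trend or library weights gave 0 higher each. Without G1 and D2 together 0 were higher with limma. The alternatives added after seeing the data, on the libraries without G1 and D2, gave 2 higher with edgeR, 13 calls with 3 higher and 10 lower with DESeq2, and 0 calls, 0 higher and 0 lower with only the G and D libraries. Leaving out each of the 9 libraries in turn gave 1 to 8 calls, 0 to 3 higher and 1 to 5 lower, with 8 calls without G1, 1 without D1 and 2 without D2. The members numbered 254 when all 3 libraries of a stage had to pass and 201 with at least 5 reads in 2 libraries. The causes of these changes were not tested. With the replicate number as a block the calls were again 4, 1 higher and 3 lower. The deviations of libraries with the same number had correlations of -0.055, -0.021 and -0.017, so no pairing by number was seen in the values. Whether pools of the same number were handled together was not tested. Of 2628 values of 91 named miRNAs under the alternatives, 31 lost a call, 34 gained one, 157 without a change of call moved by at least 1 SE of the main value and 0 reversed a call. Sparse members limit the comparison: 114 of 385 had fewer than 20 reads.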

Other observations

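Reads outside the member rule were confined to single libraries in several cases. Of the miRNAs with a read in G or D, 314 were not members, and the highest, eca-miR-497, had 86 reads. Its value was 2121 CPM in D1, 45.1 CPM in G3 and 0 in the other 4 libraries. eca-miR-195, encoded beside miR-497 in human and mouse, had 322 CPM in G3 and 0 elsewhere. eca-miR-483, which lies in an intron of the IGF2 gene in human and mouse, had 1038 CPM in D2, 5.64 CPM in G3 and 0 elsewhere. eca-miR-34a, a target of p53 in human and mouse, had 299 CPM in G3 and 27.2 CPM in D1. Each of them had 1 library behind most of its reads. This follows largely from the member rule, since a non-member cannot exceed 10 CPM in 2 libraries of G or of D. A limma fit over all 733 miRNAs with a read called 4, all of them members, and none of these.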
